A study of Homo sapiens with 5 samples.

Results

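The 8 genes described here, CDKN1A, MDM2, GDF15, BTG2, FAS, BBC3, ZMAT3 and RRM2B, are established targets of the transcription factor p53. They were examined in lists of ChIP-seq summits, the points of highest read pile-up within called peaks, from HCT116 human colorectal cancer cells. A summit was taken as near a gene when it lay inside the hg19 span of that gene or at most 10 kb beyond either end. This gave 76 of the 209263 summits in the series, in 8 windows that together cover 350 kb. The cells had been transfected with ENO1-IT1 siRNA, against a long noncoding RNA, or with control siRNA, and were collected after 48 h. Chromatin of each was precipitated with an antibody to the acetylated lysine 27 of histone H3 (H3K27ac), found at promoters and enhancers in use, and with an antibody to KAT7, or HBO1, a histone acetyltransferase of the MYST family. An input DNA library, for which the labels name no siRNA, was the fifth sample. The series addressed histone acetylation genome-wide after loss of ENO1-IT1. Each group was 1 library, so no difference between siRNAs could be set against replicate error and none carries a p-value. The siRNA of each library was taken from its title alone, since the peak names start with KO for both siRNAs.

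p53 is a stress-activated transcription factor that binds a pair of adjacent decamers in promoters and first introns of its targets. The targets include brakes on the cell cycle, inducers of apoptosis, suppliers of DNA building blocks and its own antagonist MDM2. The labels mention no stress treatment, so the values are those of transfected cells alone. H3K27ac is laid down mainly by p300 and CBP, whereas KAT7 is best known for acetylating lysine 14 of histone H3 and lysines of histone H4.

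Near the 8 genes, H3K27ac was listed to a like extent after either siRNA, with 27 summits after ENO1-IT1 siRNA and 26 after control siRNA. KAT7 was listed once after ENO1-IT1 siRNA, in BTG2, and 22 times after control siRNA. The input list had 0 summits in the windows, where 0.497% of genome tiles of the mean window length and 0.0805% of tiles of 4 kb held one, and the nearest input summit lay 460335 bp from the span of CDKN1A and at least 5683695 bp from each of the other spans. The whole lists held 31839 and 29429 H3K27ac summits and 24611 and 122439 KAT7 summits after ENO1-IT1 and control siRNA, and 945 input summits. The depth of the libraries is unknown, since the lists hold no read counts.

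**Figure D1:**
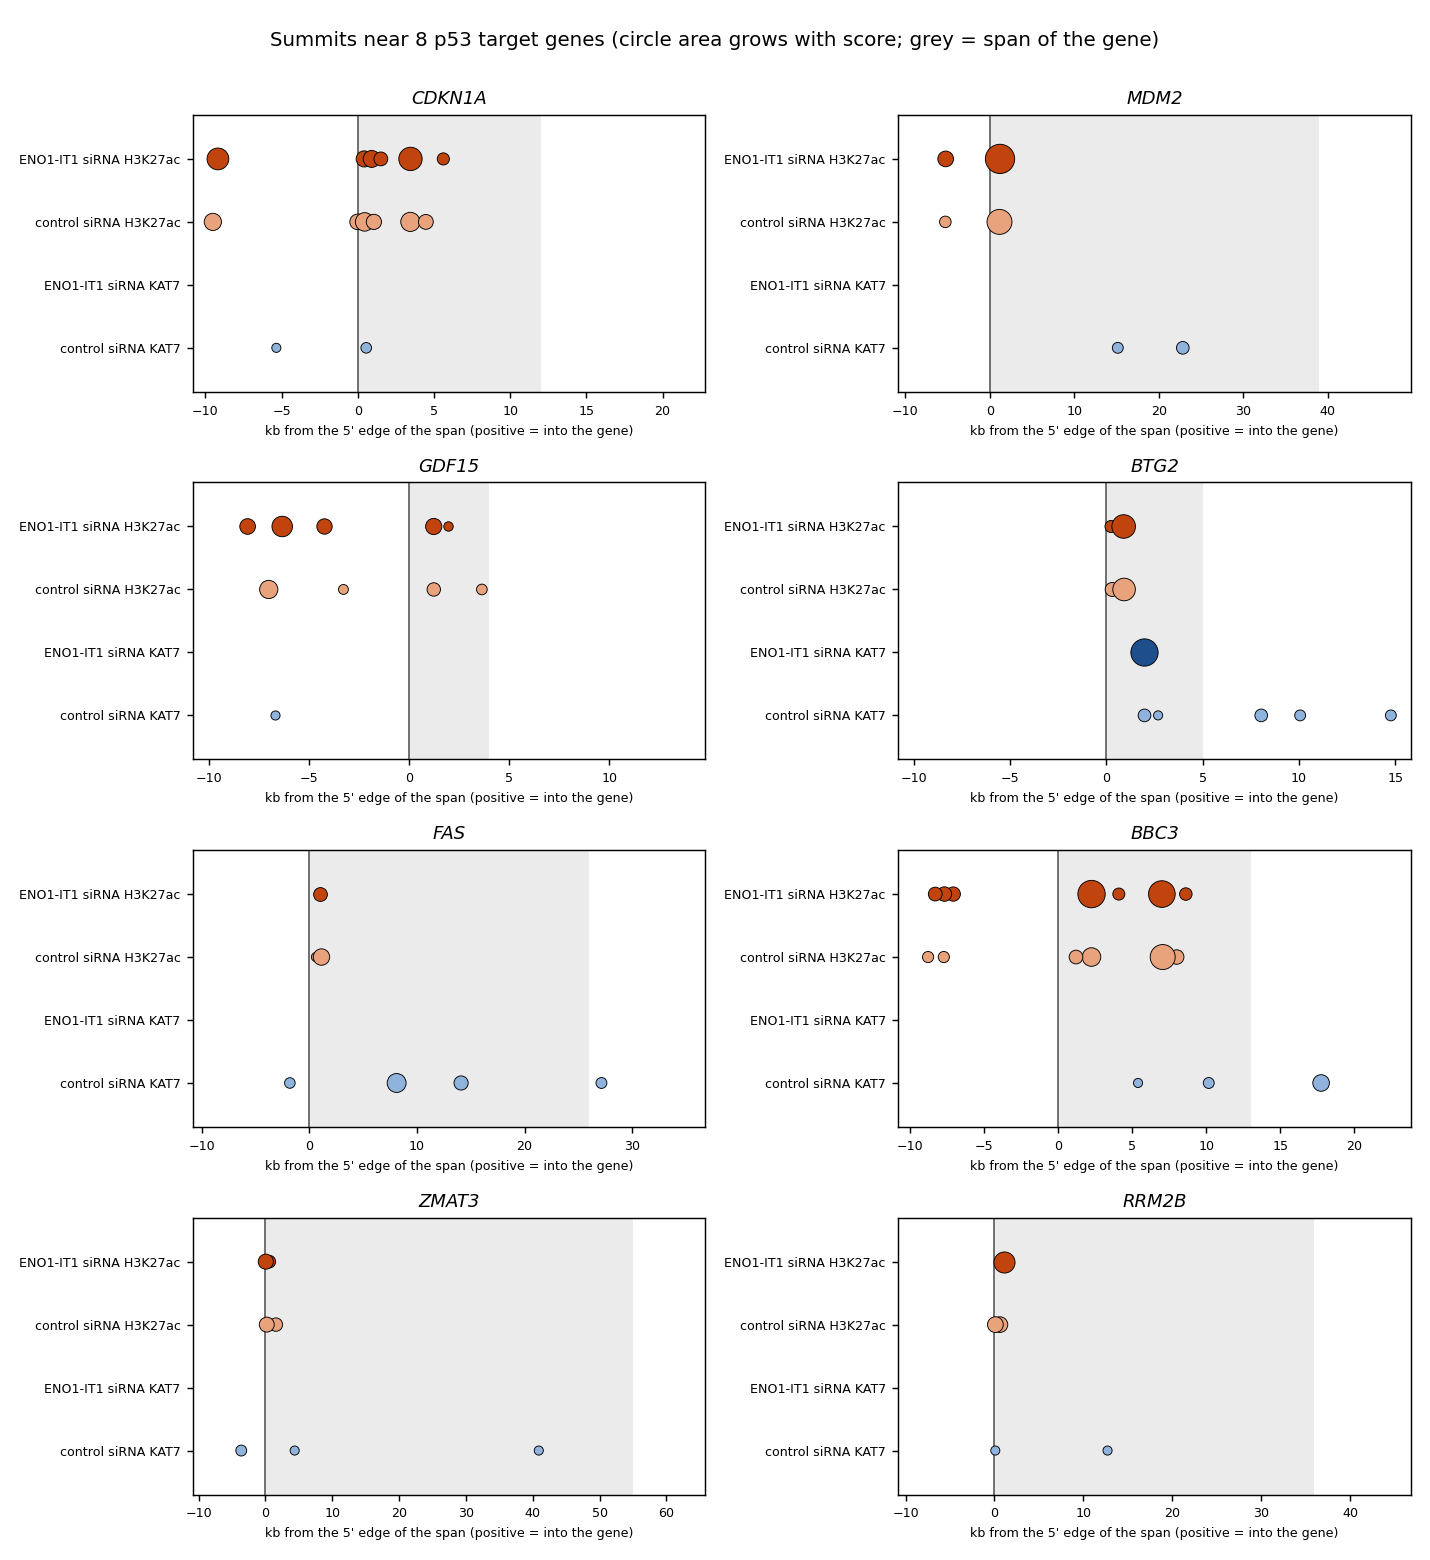
Summits near each gene, by distance in kb from the 5′ edge of its span (vertical line), with 1 row per list and circle area growing with the score. H3K27ac circles gather at the 5′ edge of most genes after both siRNAs, and the ENO1-IT1 siRNA KAT7 row is filled only in BTG2.

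All 8 windows held an H3K27ac summit after ENO1-IT1 siRNA and all 8 after control siRNA. When chromosomes 1 to 22 and X were cut into tiles of the mean window length, 43750 bp, 22.2% of tiles held an H3K27ac summit after ENO1-IT1 siRNA and 19.5% after control siRNA. Most such tiles hold no gene start, so the tiles describe the genome and are no matched set of genes. The density of H3K27ac in the windows was 7.71 summits per 100 kb after ENO1-IT1 siRNA and 7.43 after control siRNA, against 1.05 and 0.968 per 100 kb over the genome. These ratios to the genome, 7.37 after ENO1-IT1 siRNA and 7.67 after control siRNA, differ little from each other.

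KAT7 was counted in the same way. In the windows its density was 0.286 summits per 100 kb after ENO1-IT1 siRNA, below the 0.803 of that whole list, and 6.29 after control siRNA, above the 4.01 of that whole list. A KAT7 summit was present in 1 of 8 windows after ENO1-IT1 siRNA, where 27.6% of tiles held one, and in 8 of 8 after control siRNA, where 77.4% of tiles did. The ENO1-IT1 siRNA values rest on 1 summit, and most tiles held KAT7 in the control list as well. These counts are therefore no result about p53 targets in particular. Many control KAT7 calls were weak, near the genes as in the whole list, and the median score was 2.68 in both. Of the 22 control KAT7 summits, 8 carried the score 1.31 and 6 the score 2.68, values held by 26261 and 52298 summits of that list. With a score of at least 3, 1 of 1 summit remained after ENO1-IT1 siRNA and 6 of 22 (27.3%) after control siRNA, against 95.3% and 28.3% of the whole lists. With a score of at least 10 each list kept 1 near the genes, 4.55% in the control, against 37.4% of the whole list after ENO1-IT1 siRNA and 2.75% after control siRNA. Scores are the −log10 p or q values of the peak caller and grow with depth, so they rank summits within a list and are not on a common scale between lists.

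Positions within a gene were measured from the 5′ edge of its span, the start for genes on the plus strand and the end for those on the minus strand, which is known to 1 kb. Summits at most 2 kb from that edge were counted as its 5′ region. H3K27ac lay in the 5′ region of 7 genes after ENO1-IT1 siRNA and of all 8 after control siRNA. Tiles of the same length, 4 kb, held an H3K27ac summit in 3.27% and 2.81% of cases after ENO1-IT1 and control siRNA. The exception was BBC3, whose nearest ENO1-IT1 siRNA summit inside the span lay 2248 bp in. That is beyond the limit by less than the 1 kb to which the edge is known. KAT7 lay in the 5′ region of 1 gene after ENO1-IT1 siRNA and of 4 genes after control siRNA, namely CDKN1A, BTG2, FAS and RRM2B, with 3.07% and 14.6% of the 4 kb tiles holding KAT7 in those lists. No H3K27ac summit of either siRNA lay in the flank downstream of a gene, and 5 control KAT7 summits did. Control KAT7 was also the denser list over the genome. It had 4.01 summits per 100 kb, against 1.05 and 0.968 for H3K27ac after ENO1-IT1 and control siRNA. The downstream counts are therefore no result about the placement of either mark.

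Promoter sequences were searched for letters that p53 is known to bind. RefSeq promoters of GRCh38.p14 matched 7 of the 8 genes, in 13 entries, and the 250 bases before each start were searched for the p53 consensus of 20 bases, which reads alike on both strands. Several entries of MDM2 and of FAS overlap each other, so matches were counted per gene, and a gene with more entries has more chances of a match. With up to 2 mismatched positions the consensus was found in MDM2 and FAS, 2 of the 7 genes, and in 0.71% of the 27305 genes of the table. Allowing 3 mismatches added no gene of the 7 and gave a share of 5.38% of all genes. The sequences below are those of MDM2 and FAS, which hold the matches, and of BTG2 and CDKN1A, which are the gene with KAT7 after both siRNAs and one of the best-studied p53 targets. Capitals mark matches with up to 3 mismatches. The builds differ, so no summit was placed on these bases, and a match is a run of letters and not evidence of binding.
MDM2, inner start, chr12:68808767-68809016, plus strand: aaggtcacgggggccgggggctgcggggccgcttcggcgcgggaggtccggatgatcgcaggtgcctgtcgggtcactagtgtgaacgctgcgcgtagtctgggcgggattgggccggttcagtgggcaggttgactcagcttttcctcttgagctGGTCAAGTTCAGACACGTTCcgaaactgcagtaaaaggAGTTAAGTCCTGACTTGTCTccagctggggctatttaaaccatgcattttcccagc
FAS, inner start, chr10:88991181-88991430, plus strand: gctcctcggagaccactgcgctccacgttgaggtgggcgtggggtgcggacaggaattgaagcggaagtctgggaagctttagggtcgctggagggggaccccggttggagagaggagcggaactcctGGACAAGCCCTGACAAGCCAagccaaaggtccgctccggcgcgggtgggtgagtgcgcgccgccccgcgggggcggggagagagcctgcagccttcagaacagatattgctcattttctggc
BTG2, chr1:203305269-203305518, plus strand: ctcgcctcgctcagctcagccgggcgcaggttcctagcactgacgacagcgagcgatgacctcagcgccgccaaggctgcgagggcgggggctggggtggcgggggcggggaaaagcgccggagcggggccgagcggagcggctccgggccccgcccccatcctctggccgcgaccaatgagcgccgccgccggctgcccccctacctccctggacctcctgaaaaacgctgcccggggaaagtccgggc
CDKN1A, chr6:36678464-36678713, plus strand: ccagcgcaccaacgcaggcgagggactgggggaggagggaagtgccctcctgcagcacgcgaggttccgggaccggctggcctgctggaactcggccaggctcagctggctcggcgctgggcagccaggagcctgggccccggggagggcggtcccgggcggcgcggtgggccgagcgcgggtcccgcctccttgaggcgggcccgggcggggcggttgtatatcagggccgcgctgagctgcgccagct

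In the MDM2 sequence the matches were GGTCAAGTTCAGACACGTTC, beginning 94 bases before the start with 2 mismatches, and AGTTAAGTCCTGACTTGTCT, beginning 56 bases before it with 3. They stand at the inner promoter through which p53 is known to drive MDM2. The FAS match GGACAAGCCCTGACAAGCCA began 122 bases before an inner start and had 2 mismatches. The CDKN1A and BTG2 windows held no match at this limit. The known p53 sites of CDKN1A lie further upstream of its start than the window reaches. The GC content of the printed windows was 76.4% for CDKN1A, 74.8% for BTG2, 65.2% for FAS and 59.2% for MDM2, against a median of 58.0% over all promoters. Among the entries not printed, it was 49.2% for BBC3, 58.4% for GDF15, and 36.0% and 75.2% for ZMAT3. The other entries of FAS and MDM2 ranged from 59.2% to 74.4%. The GC box GGGCGG, on either strand, was found for 6 of the 7 genes and for 46.2% of all genes. CCAAT, on either strand, was found for 5 of 7 and for 37.0% of all. TATAAA, searched on the strand of the gene, was found for 1 of 7, GDF15, and for 8.38% of all.

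Among the genes that halt the cell cycle, CDKN1A encodes p21, an inhibitor of cyclin-dependent kinases. Its span runs from 36644000 to 36656000 on chromosome 6, on the plus strand. H3K27ac was listed at 6 positions after ENO1-IT1 siRNA, with scores from 3.76 to 19.02, and at 6 after control siRNA, with scores from 6.58 to 12.20. The highest-scored summits of both lists lay 9 bp apart inside the gene, at 36647459 after ENO1-IT1 siRNA (score 19.02, in the top 18.5% of its list) and at 36647450 after control siRNA (score 12.20, rank 7363 of 29429). Around the 5′ edge, 3 summits were listed after ENO1-IT1 siRNA, from 423 to 1514 bp inside, and 3 after control siRNA, from 9 bp outside to 1058 bp inside. All of these 6 had a counterpart within 500 bp. An upstream position, 9176 bp before the edge after ENO1-IT1 siRNA (score 16.29) and 9509 bp before it after control siRNA (score 9.5), was also shared, at a distance of 333 bp. The unshared summits lay further inside, at 36649614 after ENO1-IT1 siRNA (score 3.76, top 83.6%) and at 36648467 after control siRNA (score 6.58, top 52.5%). KAT7 was not listed after ENO1-IT1 siRNA, with the nearest summit at 36702125. After control siRNA it was listed at 36644555 (score 2.43), 106 bp from an H3K27ac summit, and at 36638657 (score 1.31).

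BTG2, an antiproliferative protein that also recruits the machinery for mRNA deadenylation, lies on the plus strand of chromosome 1 from 203274000 to 203279000. The H3K27ac pattern was alike in both lists. The higher summit was at 203274901 after ENO1-IT1 siRNA (score 19.43, top 17.7%) and at 203274923 after control siRNA (score 17.66, top 12.3%), 22 bp apart. The lower was at 203274242 after ENO1-IT1 siRNA (score 3.69) and at 203274301 after control siRNA (score 5.59), 59 bp apart.

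KAT7 in BTG2 was the exception among the 8 genes. It was listed at 203275962 after ENO1-IT1 siRNA with a score of 26.61, rank 2959 among the 24611 summits of that list, and 20 bp away at 203275982 after control siRNA with a score of 4.28. That control score was shared by 11169 summits of its list, and its rank of 16776 put it in the top 13.7%. These positions lay 1962 and 1982 bp inside the 5′ edge after ENO1-IT1 and control siRNA, close to the 2 kb limit of the 5′ region. The nearest H3K27ac summit of the same siRNA was 1061 bp away after ENO1-IT1 siRNA and 1059 bp away after control siRNA. KAT7 and H3K27ac thus had separate summits in BTG2 in both conditions. The control list held 4 further KAT7 summits in the window, from 2689 to 14779 bp inside the edge, with scores from 1.31 to 4.28. Of these, 3 lay downstream of the gene and none had a counterpart within 500 bp after ENO1-IT1 siRNA.

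MDM2, the ubiquitin ligase that degrades p53 and closes its feedback loop, lies on the plus strand of chromosome 12 from 69201000 to 69240000. It held the highest-scored ENO1-IT1 siRNA H3K27ac summit of the 8 genes, at 69202220, with a score of 30.98 and a place in the top 7.11% of its list. The control summit was 60 bp away at 69202160, with a score of 22.00 and a place in the top 8.11%. An upstream summit was likewise in both lists, at 69195792 after ENO1-IT1 siRNA (score 7.57) and at 69195753 after control siRNA (score 3.24). A further summit, at 69201627 (score 8.17), was listed after ENO1-IT1 siRNA alone and lay 533 bp from the main control summit, just over the limit for sharing. KAT7 was listed deep in the gene after control siRNA, at 69216162 (score 2.68) and 69223854 (score 4.28), at least 14002 bp from control H3K27ac. After ENO1-IT1 siRNA the nearest KAT7 summit to these was 93113 bp away.

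Of the genes for apoptosis, BBC3 encodes PUMA, a BH3-only protein that inhibits BCL2-family survival proteins. It lies on the minus strand of chromosome 19 from 47724000 to 47737000 and had more H3K27ac summits than any other of the 8 after ENO1-IT1 siRNA, 7, and as many as CDKN1A after control siRNA, 6. The pair of strongest positions was common to both lists. At the inner one, H3K27ac was listed at 47729999 after ENO1-IT1 siRNA (score 25.34, top 11.3%) and at 47729943 after control siRNA (score 22.07, top 7.68%). At the outer one it was listed at 47734752 after ENO1-IT1 siRNA (score 26.86, top 9.97%) and 3 bp away at 47734755 after control siRNA (score 11.37, top 26.3%). The outer position had the higher score after ENO1-IT1 siRNA and the inner one after control siRNA. A cluster in the upstream flank had 3 summits after ENO1-IT1 siRNA, from 7096 to 8312 bp before the edge with scores from 5.42 to 6.17, and 2 after control siRNA, with scores of 2.90 and 2.93. The control summit at 47735801 (score 5.30), which alone represented BBC3 in the 5′ region, had no counterpart within 500 bp. KAT7 was listed 3 times after control siRNA, the strongest at 47719239 downstream of the gene (score 8.69, top 4.13%), and the nearest ENO1-IT1 siRNA KAT7 summit to any of them was 103456 bp away.

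FAS, the death receptor for FAS ligand, lies on the plus strand of chromosome 10 from 90750000 to 90776000. H3K27ac was listed there in the 5′ region alone after either siRNA. It was listed at 90750957 after ENO1-IT1 siRNA (score 5.42, top 65.2%) and at 90751124 after control siRNA (score 8.49, top 39.7%), 167 bp apart. Another control summit at 90750624 had a score of 1.49. FAS also held the strongest control KAT7 summit of the 8 genes, at 90758113, with a score of 11.84 and a place in the top 1.83% of that list. It lay 6989 bp from the nearest control H3K27ac summit and 43561 bp from the nearest ENO1-IT1 siRNA KAT7 summit. The other control KAT7 summits, at 90748189, 90764104 and 90777152, scored from 2.43 to 5.80. No KAT7 summit was listed in the window after ENO1-IT1 siRNA.

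GDF15, a secreted stress cytokine of the TGF-beta superfamily, had the lowest share of H3K27ac positions in both lists among the 8 genes. It lies on the plus strand of chromosome 19 from 18496000 to 18500000. Of its 5 summits after ENO1-IT1 siRNA and 4 after control siRNA, 1 in each list was shared, at 18497225 (score 8.20) and 18497227 (score 5.02) in the 5′ region. The strongest summit of each list lay upstream, at 18489651 after ENO1-IT1 siRNA (score 14.25, top 27.5%) and at 18488978 after control siRNA (score 10.88, top 28.5%). These were 673 bp apart and so were not counted as shared. They were also the only H3K27ac summits scoring at least 10 near the 8 genes without a counterpart within 500 bp. Upstream of GDF15, H3K27ac was listed in both conditions over the same stretch, at other points. The control KAT7 summit at 18489270 (score 1.31) lay 292 bp from the control H3K27ac summit there, and no KAT7 summit was listed after ENO1-IT1 siRNA.

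RRM2B, the p53-inducible small subunit of ribonucleotide reductase that supplies deoxynucleotides for DNA repair, lies on the minus strand of chromosome 8 from 103216000 to 103252000. It had 1 H3K27ac summit after ENO1-IT1 siRNA, at 103250882 (score 15.19, top 25.9%), and 2 after control siRNA, at 103251378 (score 7.49, top 44.5%) and 103251894 (score 7.66, top 44.0%). The ENO1-IT1 siRNA summit lay 496 bp from the nearer control summit, just within the limit for sharing, and 1012 bp from the other. Control KAT7 was listed at 2 positions, both with the low score of 1.31. The summit at 103251904 lay 10 bp from the outer control H3K27ac summit, and that at 103239278 lay 12100 bp from control H3K27ac. After ENO1-IT1 siRNA the nearest KAT7 summit was 283054 bp from the former and 270428 bp from the latter.

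ZMAT3, a zinc finger protein that binds RNA and regulates splicing, lies on the minus strand of chromosome 3 from 178735000 to 178790000. H3K27ac was listed in the 5′ region alone, at 178789940 (score 6.87) and 178789402 (score 4.13) after ENO1-IT1 siRNA and at 178789791 (score 6.69) and 178788425 (score 5.03) after control siRNA. The stronger summits of each list were 149 bp apart and stood in the top 56.4% after ENO1-IT1 siRNA and the top 51.8% after control siRNA. ZMAT3 thus had H3K27ac near its 5′ edge at middling scores in both conditions. Its 3 control KAT7 summits scored 1.31, 1.31 and 2.68, and the nearest to control H3K27ac lay 2808 bp from it.

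**Figure D2:**
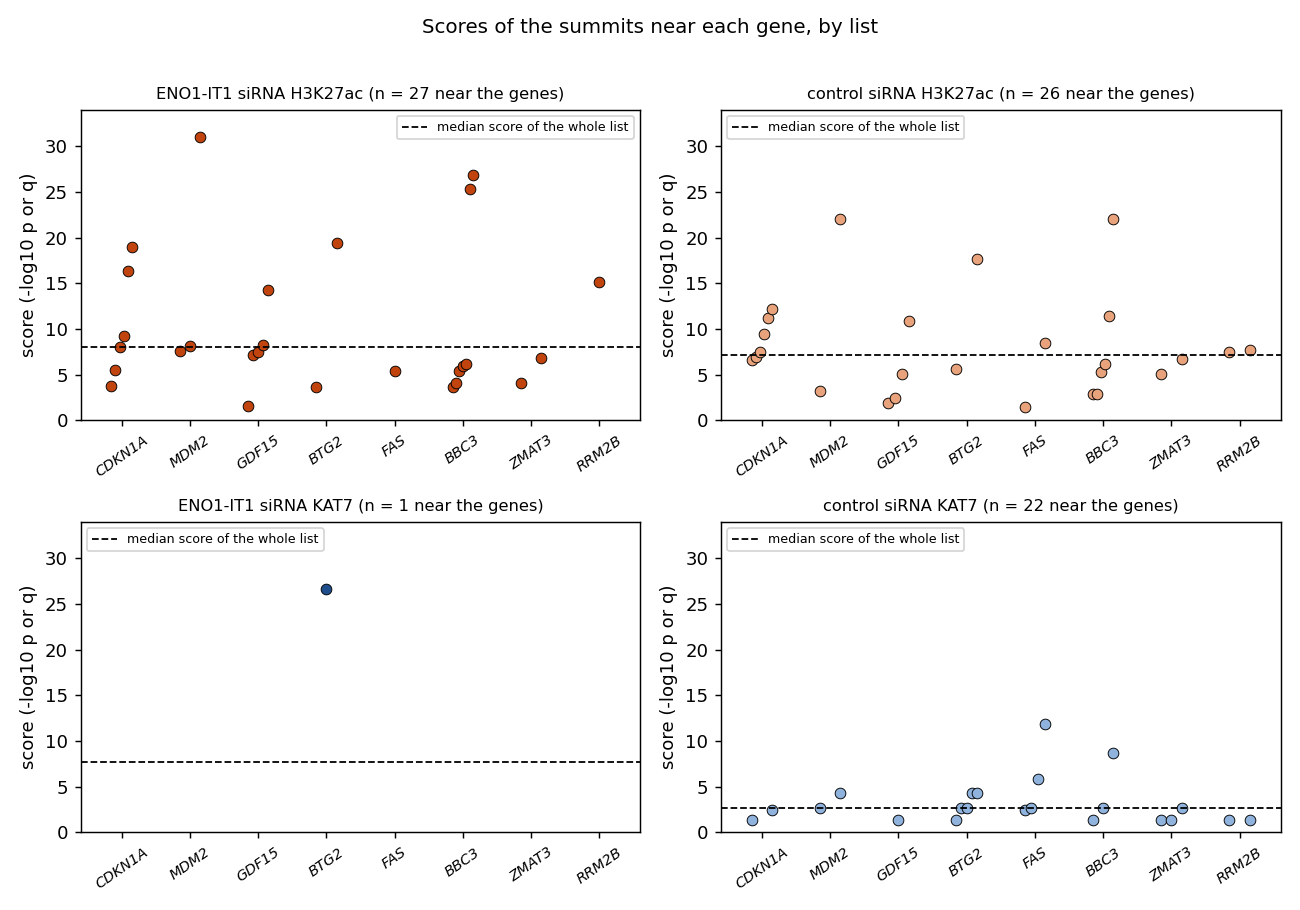
Scores (−log10 p or q) of the summits near each gene, with ENO1-IT1 siRNA panels left of control siRNA panels and the dashed line at the median score of the whole list. MDM2 and BBC3 hold the highest H3K27ac scores after both siRNAs, and most control KAT7 points lie at or below 2.68.

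Set side by side, the H3K27ac scores of the 8 genes were moderate. The median near the genes was 7.5 after ENO1-IT1 siRNA and 6.84 after control siRNA, against 8.02 and 7.14 in the whole lists. Scores of at least 10 were reached by 8 of 27 summits (29.6%) after ENO1-IT1 siRNA and by 7 of 26 (26.9%) after control siRNA, against 40.1% and 31.2% in the whole lists. After ENO1-IT1 siRNA such summits were found in CDKN1A, MDM2, GDF15, BTG2, BBC3 and RRM2B, and after control siRNA in the same genes but RRM2B. FAS and ZMAT3 had none in either list. The highest scores were 30.98 after ENO1-IT1 siRNA and 22.07 after control siRNA, far below the list maxima of 727 and 485.

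Most H3K27ac positions near the 8 genes were listed after both siRNAs, at shares near those of the whole lists. Of the 27 ENO1-IT1 siRNA summits, 18 (66.7%, 95% interval 46.0 to 83.5%) had a control summit within 500 bp, against 64.3% of the whole list. Of the 26 control summits, 18 (69.2%, 48.2 to 85.7%) had an ENO1-IT1 siRNA summit, against 71.9% of the whole list. These are exact Clopper-Pearson intervals, which cover counting error only and treat neighbouring summits as independent. The whole-list shares lie within these intervals, so the counts are no result about p53 targets in particular. All 27 ENO1-IT1 siRNA summits and all 26 control summits had a counterpart within 2000 bp, where the whole lists gave 81.1% and 93.5%.

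Pairs of summits that were each other's nearest were found in all 8 genes. There were 16 such pairs within 500 bp, from 2 to 496 bp apart with a median of 57.5 bp, and 10 of them were at most 60 bp apart. Such pairs were not counted over the whole lists, so neither their number nor their distances are a result about p53 targets in particular. In 10 pairs the ENO1-IT1 siRNA summit stood higher in its own list than the control summit did in its list, and in 6 pairs the order was the other way. Since the lists differ in length, these places are no measure of change. Shared summits had a median score of 8.13 after ENO1-IT1 siRNA and 7.49 after control siRNA, and unshared ones 5.94 and 5.72. The ranges overlapped widely, with unshared scores reaching 14.25 after ENO1-IT1 siRNA and 10.88 after control siRNA. Medians of shared and unshared summits were not computed over the whole lists, so this difference is no result about p53 targets in particular.

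**Figure D3:**
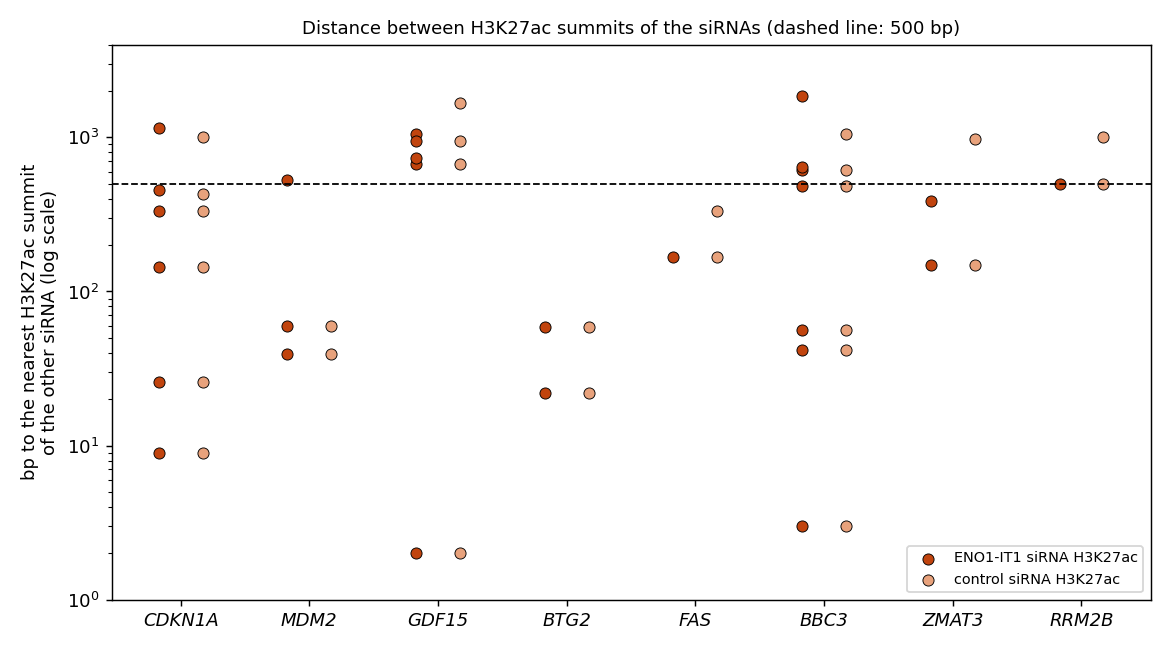
Distance in bp (log scale) from each H3K27ac summit near the 8 genes to the nearest H3K27ac summit of the other siRNA, with ENO1-IT1 siRNA points left of control siRNA points and the dashed line at 500 bp. GDF15 has 1 point per list below the line, and both BTG2 summits of each list lie at 22 and 59 bp.

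KAT7 positions were shared in 1 case. The only ENO1-IT1 siRNA summit, that in BTG2, had a control summit, where 32.2% of the whole list did. Of the 22 control summits, 1 (4.55%, 0.115 to 22.8%) had an ENO1-IT1 siRNA summit within 500 bp, against 6.62% of the whole list. The share near p53 targets is thus close to that of the whole control list, and the 21 control positions without a counterpart are no particular feature of these genes.

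KAT7 and H3K27ac seldom coincided, near the 8 genes as in the whole lists. After ENO1-IT1 siRNA 0 of 27 H3K27ac summits had KAT7 within 500 bp (exact interval up to 12.8%), against 14.3% of the whole list. That list held 1 KAT7 summit in all 8 windows, so the 0 restates this count and shows no share below that of the whole list. After control siRNA 3 of 26 (11.5%, 2.45 to 30.2%) did, against 14.8% of the whole list. From the side of KAT7, 0 of 1 summit after ENO1-IT1 siRNA and 3 of 22 (13.6%, 2.91 to 34.9%) after control siRNA had H3K27ac, against 19.0% and 3.67% of the whole lists. The 3 control cases were the summits at CDKN1A, GDF15 and RRM2B described above, at 106, 292 and 10 bp. Their KAT7 scores were 2.43, 1.31 and 1.31, and with a score of at least 3 the count was 0 of 6, where the whole list gave 6.26%, so this is no result about these genes.

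**Figure D4:**
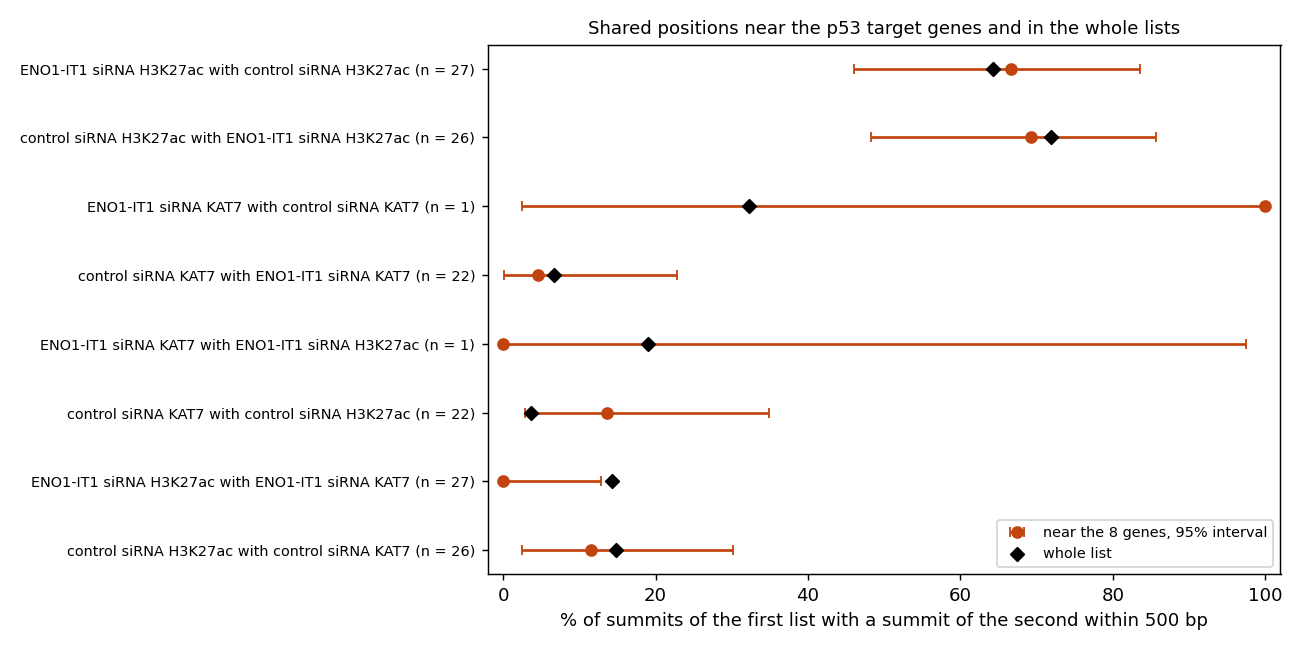
Share of summits of the first list with a summit of the second within 500 bp, in %, near the 8 genes (circles, bars are exact 95% intervals) and over the whole list (diamonds). For H3K27ac between the siRNAs the diamonds lie inside the bars, and the rows with ENO1-IT1 siRNA KAT7 rest on its 1 summit near the genes.

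Summits lay close to the 10 kb limit on both sides, near different genes. The farthest inside the limit were the control KAT7 summit 9779 bp from BTG2 (score 2.68) and the H3K27ac summits near CDKN1A. The latter lay 9176 bp from CDKN1A after ENO1-IT1 siRNA (score 16.29) and 9509 bp after control siRNA (score 9.5). The nearest beyond the limit were all near BBC3. They were ENO1-IT1 siRNA H3K27ac summits at 10185 bp (score 3.42) and 10401 bp (score 5.76) and a control H3K27ac summit at 10488 bp (score 3.53).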

How the data were processed

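The authors deposited 1 list of 1 bp summits per sample, scored as a −log10 p or q value in the MACS2 format, without a statement of which. Alignment used Bowtie and the hg19 build, and peak calling used MACS2, per the submitters' processing notes. The options, versions and calling control were not stated. The lowest score of the immunoprecipitated lists was 1.31, near 1.30, the −log10 of 0.05. List length and score depend on depth, which is unknown.

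Summits within 10 kb of the spans were collected and matched between lists at 500 bp (Python 3.11.15; numpy 2.4.6; pandas 2.3.3; SciPy 1.17.1; matplotlib 3.10.9). Tied scores share the best rank. The spans came with the choice of genes, and strands from RefSeq GRCh38.p14, or general knowledge for RRM2B. The matching was checked on simulated lists. With 1 library per group there was no test. All 8 genes are named, with the highest-scored summit per list and each unshared summit scoring at least 10. Members and lists were chosen with earlier results of these data known, and the promoter motifs after their sequences were seen. Other p53 pathway genes were not analysed here, because no hg19 annotation was used.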

Additional observations from a re-analysis of the deposited data

How the results depend on the processing

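The counts and shares with no replicate carry no test, and values are called moved here when a share left its 95% interval or a count changed by over 1.5 times. The share of H3K27ac summits with a counterpart moved with the distance, as it did in the whole lists. At 100 bp it was 37.0% of ENO1-IT1 siRNA and 38.5% of control summits, against 33.0% and 35.8% of the whole lists. At 1000 bp it was 88.9% of ENO1-IT1 siRNA summits, against 75.7%. At 2000 bp it was 100% of both, against 81.1% and 93.5%. Score minimums, lists of equal length, flanks of 2 and 25 kb and removal of summits near input left the shares at 500 bp between 61.5% and 73.7%. The whole lists gave 53.5% to 74.6% there. At scores of at least 5 or 10 in both lists the BTG2 KAT7 pair was lost, so 0% of KAT7 summits of either siRNA had a counterpart. The whole lists gave 11.8% and 8.21% after ENO1-IT1 siRNA and 14.4% and 22.3% after control siRNA. At 2000 bp the BTG2 KAT7 summit after ENO1-IT1 siRNA had H3K27ac (100% of 1, against 22.7%). For control KAT7 the share with H3K27ac was 0% at scores of at least 3, 5 and 10 and with lists of equal length. The whole list gave 6.26%, 8.59%, 14.6% and 6.91%, and at most 6 summits near the genes remained. With a score of at least 10, H3K27ac summits near the genes numbered 8 after ENO1-IT1 siRNA and 7 after control siRNA, and control KAT7 summits numbered 6, 3 and 1 at scores of at least 3, 5 and 10. The whole lists kept 40.1% and 31.2% of H3K27ac summits at 10. Of the whole control KAT7 list, 28.3% remained at 3 and 2.75% at 10, and the share at 5 was not computed. Within 1 kb of the 5′ edge, H3K27ac was in 5 genes after either siRNA, ENO1-IT1 siRNA KAT7 in 0 and control KAT7 in 2. Genome tiles of that shorter length were not counted, so these gene counts cannot be set against a background and are no result about these genes. The score minimum of 3 was added after seeing the data. No paired analysis was possible because each group holds 1 library.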
